A study of Mus musculus with 6 samples.

Results

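A set of 44 genes for chromatin remodelling and histone-modifying enzymes, with the DNA methyltransferases and TET dioxygenases, was examined in LβT2 cells, an immortalized mouse pituitary gonadotrope line. The members were chosen by symbol, and all 44 were found among the 47069 genes of the count table and passed the filter on low counts that left 14736 genes for testing. The 6 bulk polyA RNA libraries came from LβT2 cells at passage 14 that had all received 2 nM GnRH over 40 min before trypsinization. In the 3 fresh libraries the pelleted cells were lysed directly, and in the 3 RNA-Best libraries they stayed in the preservation reagent RNA-Best for 4 days or longer, at 4°C, before the same lysis. The comparison asks how far transcript levels in preserved cells match those in fresh cells. No library without GnRH entered it, so no response to GnRH can be read from it.

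Transcription of a gene depends on how its chromatin is marked and packed. Methyltransferases and acetyltransferases write marks on histones, demethylases and deacetylases remove them, and ATP-dependent remodellers of the SWI/SNF, CHD and INO80 families slide or evict nucleosomes. Polycomb complexes and deacetylases are best known for keeping genes silent, whereas H3K4 methyltransferases and acetyltransferases are associated with active promoters and enhancers. In gonadotropes, acetylation and deacetylation of histones are known to take part in the control of the gonadotropin subunit genes.

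The 3 fresh libraries held 14477304 to 47438746 counts and the 3 RNA-Best libraries 4909418 to 11999363, so the groups did not overlap in depth. After thinning to 4909268 counts each, 39 of the 44 members kept their direction and their side of the threshold. Values are given below as counts scaled to a fixed library total (CPM) with TMM factors, and a member had between 30 and 25926 counts in a library. Of the gonadotrope markers, *Cga*, *Lhb* and *Gnrhr* were present and *Fshb* had 0 counts in every library, and the summed level of the 8 markers was 3670 to 3710 CPM in fresh and 3170 to 3240 CPM in RNA-Best libraries. The markers split, since *Cga* (1800 to 1840 against 1410 to 1440 CPM), *Nr5a1* and *Pitx1* were below their fresh range in every RNA-Best library, and *Gnrhr* (110 to 126 against 158 to 172 CPM), *Foxl2* and *Egr1* were above it. *Prl* and *Pou1f1* of other pituitary lineages, *Sox2* and the leukocyte marker *Ptprc* were at 0. The markers listed with them had few counts over all libraries, with 28 for *Ghrhr*, 3 for *Gh*, 7 for *S100b* and 1 for *Hbb-bs*. The corticotrope markers *Tbx19* and *Pomc* had 3 and 1. The thyrotrope marker *Tshb* was at 0.77 to 1.04 CPM in fresh and 1.22 to 2.27 CPM in RNA-Best libraries, and of the 2 endothelial markers *Pecam1* was at 42.1 to 43.4 CPM in fresh and 37.5 to 40.7 CPM in RNA-Best libraries and *Cdh5* at 148 to 151 and 156 to 169 CPM, with a sum of 191 to 193 CPM and 193 to 207 CPM. In bulk RNA, fewer cells with a transcript and less of it per cell cannot be told apart.

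In the RNA-Best libraries 34 of the 44 members were higher and 3 were lower than in fresh libraries at a false discovery rate of 5%, and 7 did not pass. By the same test (edgeR's quasi-likelihood test) 26% of all tested genes were higher and 24.7% were lower, 50.7% in all. The median log2 fold change, RNA-Best over fresh, was 0.28 over the members and -0.01 over all tested genes. Most changes were small, with *Kmt2a* as the one member at a log2 fold change of 1.0. Every RNA-Best library lay above every fresh library in 35 members and below in 3, compared with 29% of all tested genes in each direction and 57.9% in all. A test against a 1.2-fold change (edgeR's glmTreat) left 19 members higher and 0 lower, where 8.62% and 2.82% of all tested genes passed. Without such a margin the 3 lower members passed the quasi-likelihood test at small sizes, *Smarcb1* at -0.16, *Hdac1* at -0.15 and *Hdac3* at -0.13.

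**Figure D1:**
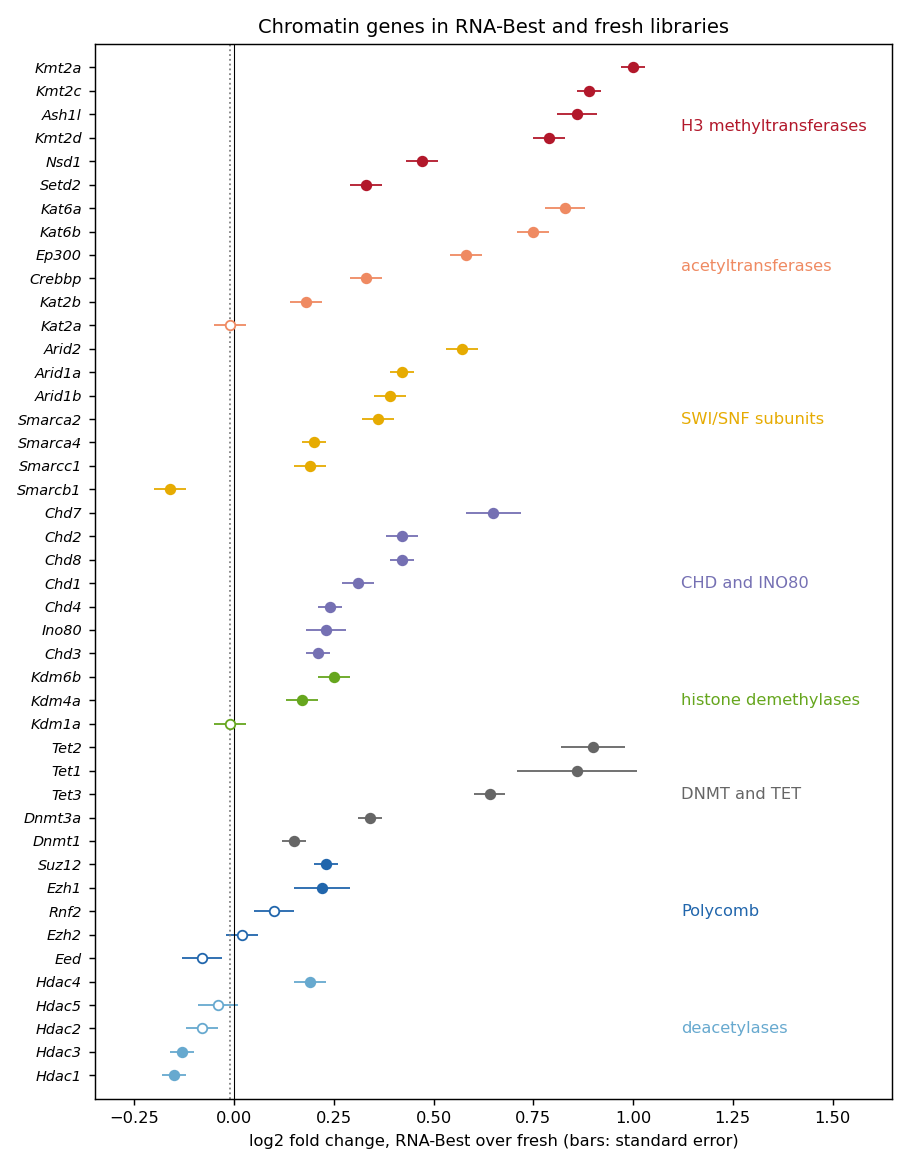
The x axis gives the log2 fold change of RNA-Best over fresh libraries (3 each) with its standard error for the 44 members, coloured by role. Filled points passed a false discovery rate of 5% and open points did not, and the dotted line is the median of all tested genes at -0.01, with *Kmt2a* farthest to the right at 1.0 and *Smarcb1* farthest to the left at -0.16.

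**Figure D2:**
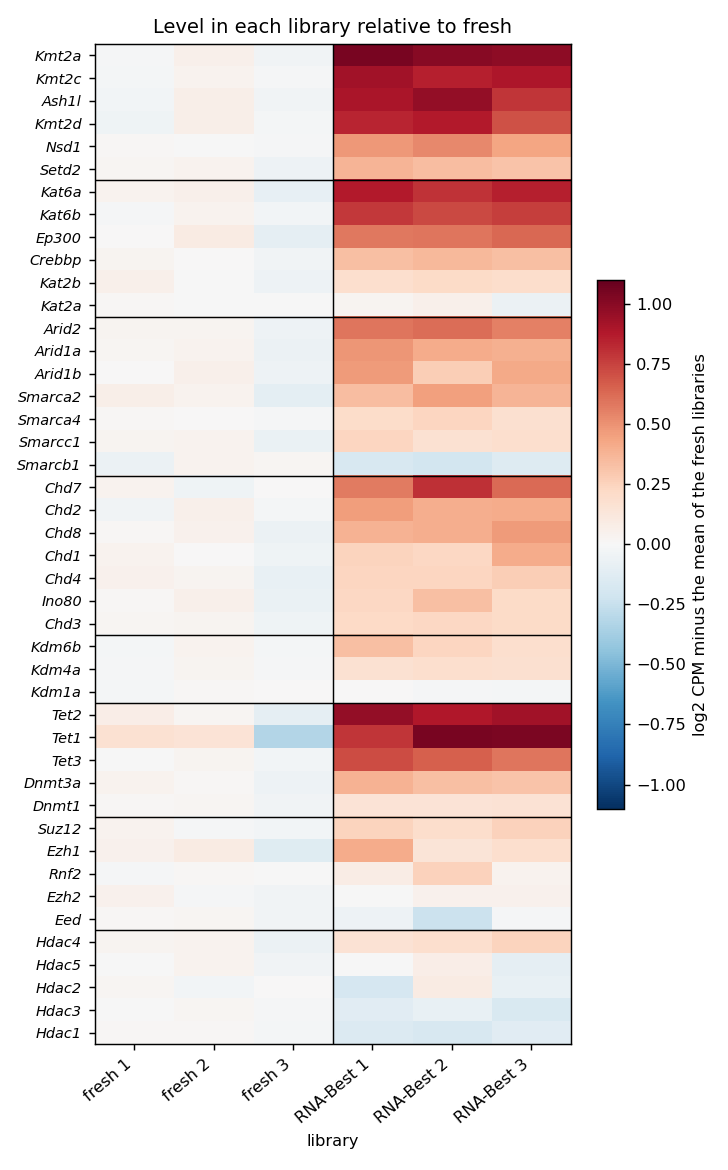
Each row is a member and each column a library, and the colour gives the log2 CPM minus the mean of the 3 fresh libraries. The methyltransferase rows at the top are red in all 3 RNA-Best columns, whereas the deacetylase rows at the bottom stay pale, and the fresh columns differ little except for *Tet1*.

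All 6 H3 methyltransferases were higher in RNA-Best libraries, with a median log2 fold change of 0.82. Higher levels were called in 26% of all tested genes and in 76.7% of those over 10 kb, the class of the role's median length. *Kmt2a* (chr9:44803355-44881296, minus strand, GRCm38), the MLL1 methyltransferase of H3K4 at promoters, was at 89.6, 93.7 and 88.0 CPM in fresh libraries 1 to 3 and 186, 181 and 179 CPM in RNA-Best libraries 1 to 3 (log2 fold change 1.0, standard error 0.03, adjusted p = 7.22e-23). *Kmt2c*, an H3K4 monomethyltransferase of enhancers, was at 94.2, 98.0 and 94.4 CPM in fresh and 181, 173 and 177 CPM in RNA-Best (log2 fold change 0.89, adjusted p = 3.65e-22). *Kmt2d*, its paralog at enhancers, was at 112, 121 and 114 CPM in fresh and 207, 212 and 188 CPM in RNA-Best (log2 fold change 0.79, adjusted p = 2.87e-19). No RNA-Best library overlapped a fresh one in these 3 genes, and the lowest RNA-Best value of *Kmt2d*, in library 3, still exceeded its highest fresh value of 121 CPM. *Ash1l*, which methylates H3K36 and counters Polycomb, was at 43.1, 46.1 and 42.9 CPM in fresh and 82.2, 85.8 and 75.9 CPM in RNA-Best (log2 fold change 0.86, adjusted p = 1.72e-17). *Nsd1*, an H3K36 dimethyltransferase, was at 53.8, 52.9 and 52.8 CPM in fresh and 74.1, 76.5 and 71.7 CPM in RNA-Best (log2 fold change 0.47, adjusted p = 1.47e-11). *Setd2*, the H3K36 methyltransferase that travels with RNA polymerase II, had the smallest rise of the role, from 68.1, 68.8 and 64.6 CPM in fresh to 86.8, 85.0 and 83.4 CPM in RNA-Best (log2 fold change 0.33, standard error 0.04, adjusted p = 1.65e-08). *Setd2* and *Nsd1* lost the call with an offset for exonic length, at log2 fold changes of 0.09 each, and the 4 others kept it under all 18 settings tried.

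The promoters of *Kmt2a*, the member with the largest rise, and of its relative *Kmt2d* are shown because they carry a feature that most members share, a start site rich in G, C and CpG. RefSeq promoter windows on GRCm38.p6, which run from 250 bases before to 50 after the start, matched 33 of the 44 genes with 41 windows. Their median GC content was 69.3%, with 30 CpG, against 52.7% and 7 CpG over all 32851 windows. The stretches printed are the 250 bases before the start on the minus strand, chr9:44881290-44881539 for *Kmt2a* and chr15:98871206-98871455 for *Kmt2d*, and capitals mark a match to the EGR motif GCGNGGGCG, which lies at base 57 of the *Kmt2d* window.
Kmt2a: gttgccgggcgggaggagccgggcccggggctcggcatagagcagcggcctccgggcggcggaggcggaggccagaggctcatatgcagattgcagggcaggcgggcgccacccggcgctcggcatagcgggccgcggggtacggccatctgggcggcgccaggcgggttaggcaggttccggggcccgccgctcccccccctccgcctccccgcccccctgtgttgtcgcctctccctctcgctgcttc
Kmt2d: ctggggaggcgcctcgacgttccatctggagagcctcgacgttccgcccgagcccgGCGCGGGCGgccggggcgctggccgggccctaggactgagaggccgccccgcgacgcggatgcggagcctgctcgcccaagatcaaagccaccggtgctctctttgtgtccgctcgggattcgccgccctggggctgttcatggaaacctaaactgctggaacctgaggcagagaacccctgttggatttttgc
Searched on both strands, GCGNGGGCG was in 8 of the 41 member windows (19.5%) and in 5.55% of all windows. Apart from N these letters are all G or C, and the member windows are richer in both. Shares in windows of matched GC content were not counted, and some windows of *Chd4*, *Dnmt3a* and *Kat6b* overlap. TGANTCA, the AP-1 motif, was in 4 windows (9.76% against 7.81%), and the cyclic AMP response element TGACGTCA, the ETS motif CCGGAAGT and the TATA box letters TATAAA were in 0 of 41 windows, compared with 1.79%, 3.89% and 13.6% of all windows. A match describes letters in a window and not bound protein.

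Of the 6 acetyltransferases 5 were higher in RNA-Best libraries and 1 did not pass, with a median log2 fold change of 0.45. Their median length also lies over 10 kb, where 76.7% of genes were higher, against 26% of all tested genes. *Kat6a*, the MOZ acetyltransferase of H3, was at 45.2, 45.7 and 41.4 CPM in fresh and 80.7, 76.5 and 79.8 CPM in RNA-Best (log2 fold change 0.83, standard error 0.05, adjusted p = 1.55e-17). Its paralog *Kat6b* (MORF) was at 71.6, 74.3 and 70.6 CPM in fresh and 124, 119 and 122 CPM in RNA-Best (log2 fold change 0.75, adjusted p = 1.35e-18). The groups were far apart in both genes, with every RNA-Best value at or above 76.5 CPM for *Kat6a* and at or above 119 CPM for *Kat6b*. *Ep300* (chr15:81585351-81652077, plus strand), the p300 coactivator that acetylates H3K27, was at 94.2, 100 and 87.8 CPM in fresh and 140, 141 and 145 CPM in RNA-Best (log2 fold change 0.58, standard error 0.04, adjusted p = 5.38e-15). *Crebbp* (chr16:4081328-4213997, minus strand), the CBP coactivator that CREB recruits, was at 82.8, 81.5 and 79.1 CPM in fresh and 102, 104 and 102 CPM in RNA-Best (log2 fold change 0.33, standard error 0.04, adjusted p = 2.87e-09). Both coactivators were higher without overlap, and *Ep300* kept its call with offsets for exonic length (0.26) and for coding length (0.19), whereas *Crebbp* did not pass with either (0.02 and -0.06). *Kat2b* (PCAF), an H3K9 acetyltransferase, was at 89.6, 85.8 and 82.8 CPM in fresh and 97.5, 99.8 and 98.3 CPM in RNA-Best (log2 fold change 0.18, adjusted p = 0.000162). *Kat2a* (GCN5), its paralog in the SAGA complex, was at 114, 112 and 112 CPM in fresh and 115, 117 and 108 CPM in RNA-Best, with overlapping groups (log2 fold change -0.01, standard error 0.04, adjusted p = 0.877). *Kat2b* lost its call with an offset for coding length (0.07), and *Kat2a* was called lower (-0.13), but higher with an offset for GC content (0.11).

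*Crebbp* was also among the genes for which the study designed single-cell PCR primers, whose values were not analysed here, and its primers are shown to place that assay on the transcript. They span 76 bases over exons 14 and 15 of 31 (chr16:4115904-4117276, GRCm38, minus strand) inside the coding sequence, 7109 bases from the 3′ end of the 10820-base transcript.
Crebbp forward primer: tactcagcctcctggcaca
Crebbp reverse primer: cacagaggagggagtaggga
Reads of the bulk libraries, in contrast, were counted over all exons of the gene.

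SWI/SNF complexes use ATP to move nucleosomes, and 6 of the 7 subunits were higher and 1 was lower in RNA-Best libraries, with a median log2 fold change of 0.36. For all tested genes the shares were 26% higher and 24.7% lower. Over 10 kb, the class of the role's median length, they were 76.7% and 2.01%. *Arid2*, the subunit that defines the PBAF form, was at 87.4, 87.5 and 82.3 CPM in fresh and 129, 131 and 126 CPM in RNA-Best (log2 fold change 0.57, standard error 0.04, adjusted p = 1.13e-15). The subunits of the BAF form *Arid1a* and *Arid1b* rose from means of 175 ± 6.28 and 84.5 ± 3.37 CPM (SD, n = 3) to 236 ± 7.74 and 110 ± 7.97 CPM, with log2 fold changes of 0.42 and 0.39. *Smarca2* (BRM), one of the alternative ATPases, was at 103, 101 and 91.1 CPM in fresh and 124, 134 and 127 CPM in RNA-Best (log2 fold change 0.36, adjusted p = 1.3e-09). *Smarca4* (BRG1), the other, was at 276, 274 and 271 CPM in fresh and 314, 322 and 309 CPM in RNA-Best (log2 fold change 0.20, adjusted p = 1.96e-07). The ATPase groups did not overlap, and *Smarca4* was above *Smarca2* in level per kb of exons in every library. *Smarcc1*, a core scaffold subunit, had means of 74.7 ± 3.36 and 85.6 ± 2.21 CPM (SD, n = 3) and a log2 fold change of 0.19 (adjusted p = 0.000305), and it did not pass when the libraries were thinned to equal depth (0.14). With an offset for exonic length *Smarca2* (0.04) and *Smarcc1* (0.04) did not pass, and with an offset for coding length neither did *Smarca2* (0.07), *Smarcc1* (-0.01), *Arid1a* (0.04) and *Arid1b* (0.01), while *Smarca4* was called lower (-0.10). *Smarcb1*, the core subunit that contacts the nucleosome, fell from 76.0, 81.7 and 80.7 CPM in fresh to 70.2, 69.2 and 72.1 CPM in RNA-Best (log2 fold change -0.16, standard error 0.04, adjusted p = 0.00175). All 3 RNA-Best values of *Smarcb1* were below the lowest fresh value of 76.0 CPM, and its log2 fold change was -0.12 with no call after thinning and -0.31 with the offset for exonic length.

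All 7 CHD and INO80 remodellers were higher in RNA-Best libraries, with a median log2 fold change of 0.31 and no overlap between the groups. Of all tested genes 26% were called higher and 29% lay higher without overlap. With 5 to 10 kb of exons, the class of the role's median length, 45.2% were called higher. *Chd7*, which is mutated in CHARGE syndrome, had the lowest level per length of them and rose the most, from 19.9, 18.8 and 19.5 CPM in fresh to 28.8, 33.8 and 29.9 CPM in RNA-Best (log2 fold change 0.65, standard error 0.07, adjusted p = 1.51e-10). *Chd8*, its relative that binds beta-catenin, was at 131, 134 and 124 CPM in fresh and 169, 171 and 179 CPM in RNA-Best (log2 fold change 0.42, adjusted p = 9.4e-13). *Chd2*, a remodeller of active genes, was at 57.4, 61.1 and 58.0 CPM in fresh and 80.7, 77.7 and 78.0 CPM in RNA-Best (log2 fold change 0.42, adjusted p = 2.22e-10). *Chd2* shares 19.3% of its exonic bases with other annotated genes, so its value is less certain. *Chd1*, which binds trimethylated H3K4, was at 77.4, 75.8 and 73.1 CPM in fresh and 89.4, 88.1 and 100 CPM in RNA-Best (log2 fold change 0.31, adjusted p = 1.71e-07). *Chd4*, the main ATPase of the NuRD deacetylase complex, was at 322, 318 and 293 CPM in fresh and 365, 365 and 375 CPM in RNA-Best (log2 fold change 0.24, adjusted p = 2.64e-08). *Chd3*, the alternative NuRD ATPase, was at 342, 345 and 326 CPM in fresh and 393, 396 and 391 CPM in RNA-Best (log2 fold change 0.21, adjusted p = 4.36e-08). *Chd3* and *Chd4* had the highest levels per length of this role in every library, and their log2 fold changes were within the standard error of each other. *Ino80*, the ATPase of the INO80 complex, which slides nucleosomes, was at 38.4, 39.4 and 36.2 CPM in fresh and 44.4, 47.8 and 44 CPM in RNA-Best (log2 fold change 0.23, adjusted p = 0.000526). *Chd7* alone of these 7 kept its call as higher under every setting tried, and with an offset for coding length *Chd3* (-0.14) and *Chd4* (-0.10) were called lower. Under that offset *Chd1* (0.00), *Chd2* (0.10), *Chd8* (0.01) and *Ino80* (-0.06) did not pass. With an offset for exonic length *Chd2* (0.10), *Chd3* (0.05), *Chd8* (0.05) and *Ino80* (0.12) did not pass.

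Of the 3 histone demethylases 2 were higher and 1 did not pass, where 26% of all tested genes and 45.2% of those with 5 to 10 kb were higher. *Kdm6b* (JMJD3), which removes the Polycomb mark H3K27me3, was at 97.7, 102 and 97.9 CPM in fresh and 125, 117 and 113 CPM in RNA-Best (log2 fold change 0.25, standard error 0.04, adjusted p = 1.13e-06). *Kdm4a*, a demethylase of H3K9 and H3K36, was at 61.9, 63.8 and 62.0 CPM in fresh and 70.4, 71.2 and 70.8 CPM in RNA-Best (log2 fold change 0.17, adjusted p = 0.000725). *Kdm1a* (LSD1), which demethylates H3K4, was at 98.6, 101 and 99.9 CPM in fresh and 99.9, 99.1 and 98.5 CPM in RNA-Best, with overlapping groups (log2 fold change -0.01, standard error 0.04, adjusted p = 0.862). The levels of *Kdm1a* spanned 98.5 to 101 CPM over all 6 libraries. The call of *Kdm4a* was lost after thinning (0.13), and both calls were lost with an offset for coding length, at -0.01 for *Kdm4a* and -0.05 for *Kdm6b*. Under that offset *Kdm1a* was called lower (-0.14).

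The genes of DNA methylation and its removal were higher in 5 of 5 cases, with a median log2 fold change of 0.64. Calls as higher made up 26% of all tested genes and 76.7% of those over 10 kb, the class of the role's median length. *Tet2*, which oxidizes 5-methylcytosine, was at 9.51, 9.18 and 8.42 CPM in fresh and 17.6, 16.6 and 17.1 CPM in RNA-Best (log2 fold change 0.90, standard error 0.08, adjusted p = 1.88e-11). *Tet1*, of the same family, was the lowest member in level per length, at 3.33, 3.28 and 2.37 CPM in fresh and 5.10, 6.10 and 6.07 CPM in RNA-Best (log2 fold change 0.86, standard error 0.15, adjusted p = 5.02e-06). *Tet3*, the third of the family, was at 97.0, 99.3 and 95.4 CPM in fresh and 160, 153 and 146 CPM in RNA-Best (log2 fold change 0.64, adjusted p = 2.31e-17). The TET groups did not overlap, and all 3 TET genes kept their calls under every setting. *Dnmt3a*, a de novo DNA methyltransferase, had means of 127 ± 3.84 CPM in fresh and 161 ± 4.05 CPM in RNA-Best libraries (SD, n = 3) and a log2 fold change of 0.34, which was -0.03 with an offset for exonic length. *Dnmt1*, the maintenance methyltransferase and the highest member in level per length, was at 545, 549 and 526 CPM in fresh and 600, 599 and 604 CPM in RNA-Best (log2 fold change 0.15, standard error 0.03, adjusted p = 6.85e-06), and its log2 fold change was 0.03 with no call under the same offset. *Dnmt1* was called lower with an offset for coding length (-0.14), and *Dnmt3a* was higher (0.19).

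Of the 5 Polycomb genes 2 were higher and 3 did not pass, where 26% of all tested genes were higher, and the median log2 fold change was 0.10. *Suz12*, a core subunit of the H3K27 methyltransferase complex PRC2, was at 215, 207 and 205 CPM in fresh and 247, 239 and 249 CPM in RNA-Best (log2 fold change 0.23, standard error 0.03, adjusted p = 4.5e-08). *Ezh2*, the main catalytic subunit of PRC2, was at 84.3, 81.2 and 79.7 CPM in fresh and 81.7, 84.2 and 84.3 CPM in RNA-Best (log2 fold change 0.02, adjusted p = 0.665). *Ezh1*, the alternative catalytic subunit, was at 30.1, 31.0 and 26.5 CPM in fresh and 38.7, 32.1 and 33.2 CPM in RNA-Best (log2 fold change 0.22, standard error 0.07, adjusted p = 0.00473). *Suz12* was higher in each RNA-Best library, the groups of *Ezh2* overlapped, and *Ezh1* lost its call without RNA-Best library 1 (0.14) and with offsets for exonic length (0.09, or 0.14 with the replicate block) and coding length (0.13). *Eed*, the PRC2 subunit that reads H3K27me3, was at 51.4, 51.7 and 49.5 CPM in fresh and 49.0, 43.1 and 50.5 CPM in RNA-Best (log2 fold change -0.08, adjusted p = 0.202). *Rnf2* (RING1B), the ubiquitin ligase of PRC1, was at 43.7, 44.4 and 44 CPM in fresh and 46.7, 52.5 and 45.3 CPM in RNA-Best (log2 fold change 0.10, adjusted p = 0.0989). In both of these genes RNA-Best library 2, the shallowest, was farthest from the fresh libraries. The groups of *Rnf2* did not overlap although it was not called, and *Eed* shares 8.23% of its 100-base stretches with an overlapping gene. *Rnf2* was called higher with an offset for coding length (0.18) and with the offset for exonic length and the replicate block together (0.14), and *Eed* was called lower with an offset for GC content (-0.12).

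Deacetylases had the lowest median of any role, at -0.08, with 1 of 5 higher, 2 lower and 2 that did not pass. Among all tested genes 26% were higher and 24.7% lower. Up to 5 kb of exons, the class of the role's median length, it was 10.2% and 34.6%, with a median of -0.10, near that of the role. *Hdac1*, a class I deacetylase of the NuRD, Sin3 and CoREST complexes, was at 169, 169 and 165 CPM in fresh and 151, 148 and 154 CPM in RNA-Best (log2 fold change -0.15, standard error 0.03, adjusted p = 0.000141). *Hdac3*, the catalytic subunit of the NCoR complex, was at 138, 140 and 137 CPM in fresh and 127, 131 and 123 CPM in RNA-Best (log2 fold change -0.13, adjusted p = 0.00158). *Hdac2*, the close relative of *Hdac1*, was at 101, 97.4 and 99.6 CPM in fresh and 87.4, 106 and 94.1 CPM in RNA-Best (log2 fold change -0.08, adjusted p = 0.148). *Hdac1* and *Hdac3* were lower in every RNA-Best library, and the groups of *Hdac2* overlapped through RNA-Best library 2. *Hdac2* was called lower without that library (-0.12), with no filter (-0.12) and with an offset for GC content (-0.19). The class IIa genes, whose proteins shuttle between cytoplasm and nucleus, were *Hdac4* at 69.2, 69.6 and 64.9 CPM in fresh and 75.8, 77.3 and 80.5 CPM in RNA-Best (log2 fold change 0.19, standard error 0.04, adjusted p = 0.000258) and *Hdac5* at 44.5, 46.1 and 43.7 CPM in fresh and 44.6, 47.2 and 41.8 CPM in RNA-Best (log2 fold change -0.04, adjusted p = 0.585). *Hdac4* was higher without overlap and *Hdac5* overlapped, and with an offset for exonic length both were called lower, at -0.16 and -0.21. With an offset for coding length *Hdac4* did not pass (0.00) and *Hdac5* was called lower (-0.24). The value of *Hdac1* is uncertain, because 46.8% of its 100-base stretches also occur in other annotated genes, nearly all of them in *Gm10093*. That gene had a mean of 28.1 CPM in fresh and 27.9 CPM in RNA-Best libraries. For *Hdac4*, 22.4% of the exonic bases lie in another gene.

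The activators, the 12 methyltransferases and acetyltransferases, were then set against the repressors, the 10 Polycomb and deacetylase genes. Of the activators 11 were higher and 0 were lower, with a median log2 fold change of 0.66, and of the repressors 3 were higher and 2 lower, with a median of -0.01. The repressor counts are near the shares of all tested genes (26% higher and 24.7% lower, median -0.01), and the activator count is above them. The length classes of the 2 lists differ. Over 10 kb of exons, the class of the activators' median length, 76.7% of tested genes were higher (median 0.32). Up to 5 kb, the class of the repressors' median length, 10.2% were higher and 34.6% lower (median -0.10). The mean log2 CPM of the activators minus that of the repressors was -0.04, -0.01 and -0.03 in fresh libraries 1 to 3 and 0.54, 0.53 and 0.51 in RNA-Best libraries 1 to 3. The fresh values lay close together, and each RNA-Best value was above them. CPM is not a level per length, so only the change between libraries is read from this difference. Summed over the list, the activators reached 931 to 980 CPM in fresh and 1429 to 1475 CPM in RNA-Best libraries, and the repressors 915 to 947 and 949 to 959.5 CPM. The medians differed by 0.67 without an offset, by 0.39 with an offset for exonic length and by 0.26 with an offset for coding length. Under the exonic offset 8 activators were higher and 0 lower, and 1 repressor was higher and 4 lower, against 18.9% and 20.4% of all genes. For coding length the counts were 7 and 1, and 2 and 3. The difference without an offset was smaller with SWI/SNF subunits and *Kdm6b* added to the activators, as given at the end. The activators were also the longer genes, with a median exonic length of 14556 bases against 4710 for the repressors, so that role and length go together in these lists.

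Across the members the log2 fold change rose with gene length. Spearman's rho with exonic length was 0.839 over the 44 members and 0.522 over 14689 tested genes with an annotated length, and with coding length it was 0.832 and 0.56. These are descriptions across genes of the same 6 libraries, and genes are not replicates. All 21 members with more than 10 kb of exons were higher, with a median log2 fold change of 0.57, where 76.7% of all such genes were higher and 2.01% lower, with a median of 0.32. Between 5 and 10 kb, 11 of 15 members were higher and 1 was lower, against 45.2% and 10.1% of all genes in that range. Of the 8 members with up to 5 kb, 2 were higher and 2 lower, against 10.2% and 34.6% of all genes of that length. *Smarcb1* departed from this order, being lower with 7930 bases of exons, of which its longest coding sequence takes 1155, and *Kat6a* rose by 0.83 with 9180 bases. The cause of the relation with length was not tested.

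**Figure D3:**
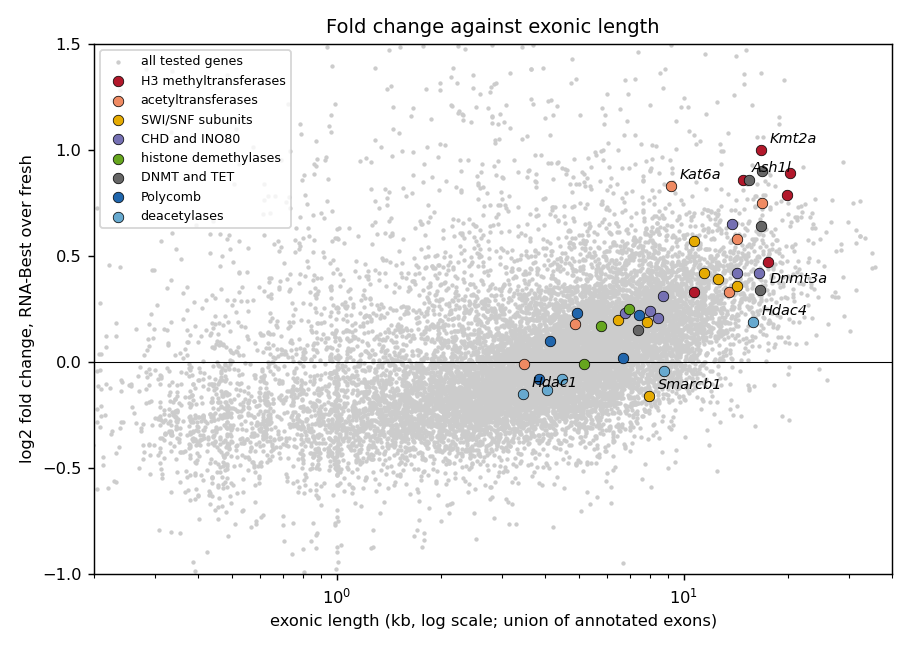
The x axis gives the exonic length in kb on a log scale and the y axis the log2 fold change of RNA-Best over fresh libraries, with all tested genes in grey (genes beyond the axes are not drawn) and the 44 members coloured by role. All 21 members to the right of 10 kb lie above 0, and the deacetylases other than *Hdac4* lie below it.

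Offsets fitted to length in each library lowered most of the members' values, and what was left still followed length. After the offset for exonic length, rho over the members was 0.462 with exonic and 0.59 with coding length, and after the offset for coding length it was 0.653 and 0.463. Over all tested genes it was 0.0844 with exonic and 0.326 with coding length after the offset for exonic length. After the offset for coding length it was 0.304 and 0.0184, so the length not fitted kept a relation there too. With an offset for exonic length, 21 members were higher, 5 were lower and 18 did not pass, where 18.9% of all genes were higher and 20.4% lower, 39.3% in all. With an offset for coding length, chosen after seeing the data, 15 were higher and 10 lower, where 22.1% of all genes were higher and 20% lower, 42.1% in all. An offset for GC content, in contrast, gave 35 higher and 5 lower members, with 24.9% of all genes higher and 22.6% lower, 47.4% in all. The median of the methyltransferases fell from 0.82 to 0.43 and 0.27 under the offsets for exonic and coding length, and that of the acetyltransferases from 0.45 to 0.21 and 0.13. The SWI/SNF median went from 0.36 to 0.11 and 0.01, and that of the CHD and INO80 genes from 0.31 to 0.10 and 0.00. That of the DNMT and TET genes went from 0.64 to 0.28 and 0.32, that of the Polycomb genes from 0.10 to 0.09 and 0.13, and that of the deacetylases from -0.08 to -0.11 and -0.10. A group of 12 members was higher in all 18 settings, namely *Kmt2a*, *Kmt2c*, *Kmt2d*, *Ash1l*, *Ep300*, *Kat6a*, *Kat6b*, *Arid2*, *Chd7*, *Tet1*, *Tet2* and *Tet3*. Of the 11342 genes tested in every setting, 6.78% were higher in all of them. Over 10 kb of exons it was 11 of 21 members and 26% of all such genes. The group holds 7 of the 12 activators and 0 of the 10 repressors.

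**Figure D4:**
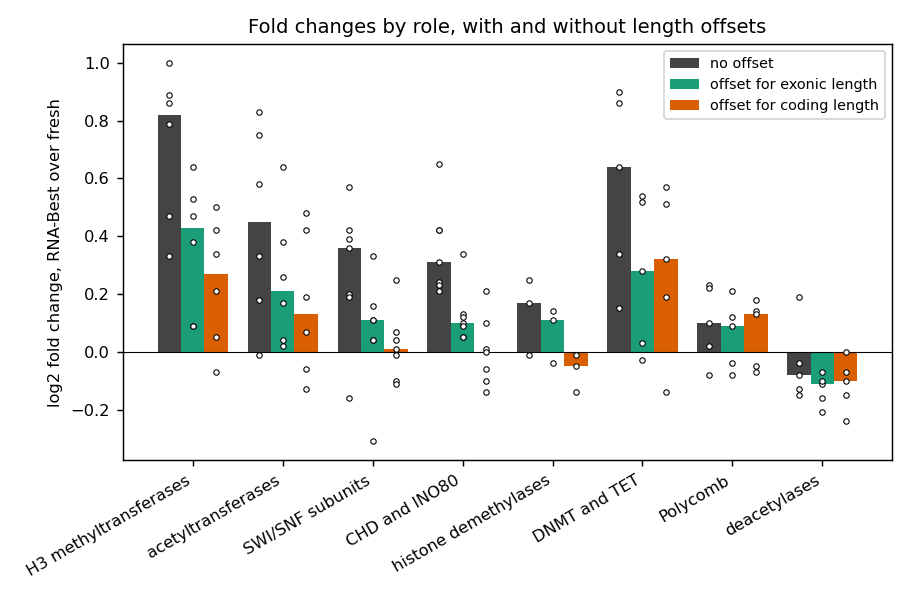
Bars give the median log2 fold change of RNA-Best over fresh libraries for each role without an offset (dark grey), with an offset for exonic length (green) and with an offset for coding length (orange), and points give the members. The methyltransferase bar shrinks from 0.82 to 0.43 and 0.27, and the deacetylase bars stay below 0 at -0.08, -0.11 and -0.10.

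Paralogs of similar function were compared within each library as the log2 ratio of their levels per kb of exons. Of 12 pairs the ratio did not overlap between the groups in 7, each with the smallest p that 3 libraries against 3 allow (exact permutation test, two-sided, p = 0.1, adjusted p = 0.171 over the pairs), so none can pass at 5%. In CPM of single genes the groups did not overlap in 57.9% of all tested genes. A ratio of 2 genes is another measure, and its share over other gene pairs was not computed. The ratio of *Ep300* to *Crebbp* was 0.11, 0.22 and 0.07 in fresh and 0.39, 0.36 and 0.43 in RNA-Best libraries, a shift of 0.26 toward *Ep300*. The ratio of *Chd7* to *Chd8* was -2.46, -2.56 and -2.40 in fresh and -2.29, -2.07 and -2.32 in RNA-Best libraries, a shift of 0.25. For *Ezh1* over *Ezh2* it was -1.64, -1.54 and -1.74 in fresh and -1.24, -1.54 and -1.50 in RNA-Best libraries, a shift of 0.22 whose groups touch at library 2 of each. The other pairs without overlap were *Hdac4* over *Hdac5* (0.21), *Kat2a* over *Kat2b* (-0.19), *Smarca2* over *Smarca4* (0.18) and *Kat6a* over *Kat6b* (0.09). *Kmt2c* over *Kmt2d* (0.08), *Arid1a* over *Arid1b* (0.04), *Chd3* over *Chd4* (-0.03), *Chd1* over *Chd2* (-0.13) and *Hdac1* over *Hdac2* (-0.10) overlapped. A p above the threshold does not show that these ratios were the same.

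To see how far reads could be shared within a pair, the longest identical run of the coding sequences was found, and the runs of the 3 pairs with the largest shifts are shown. Over the 12 pairs these runs were 17 to 37 bases long. For *Ep300* and *Crebbp* the run lies in exon 18 of 31 of both genes (chr15:81631797-81631825, plus strand, and chr16:4108064-4108092, minus strand, GRCm38). For *Chd7* and *Chd8* it lies in exon 17 of 38 (chr4:8839582-8839604, plus strand) and exon 18 of 38 (chr14:52215899-52215921, minus strand). For *Ezh1* and *Ezh2* it lies in the last exons, 21 of 21 (chr11:101192961-101192977) and 20 of 20 (chr6:47530563-47530579), both on the minus strand.
Ep300 and Crebbp: tttgaacaagaaattgaccctgtcatgca
Chd7 and Chd8: atctttgattcagactggaatcc
Ezh1 and Ezh2: aagtatgtgggcatcga
No capitals are used here, since the whole of each run is shared. Each is shorter than 100 bases, and 30 of the 44 members had no 100-base stretch in common with any other annotated gene.

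**Figure D5:**
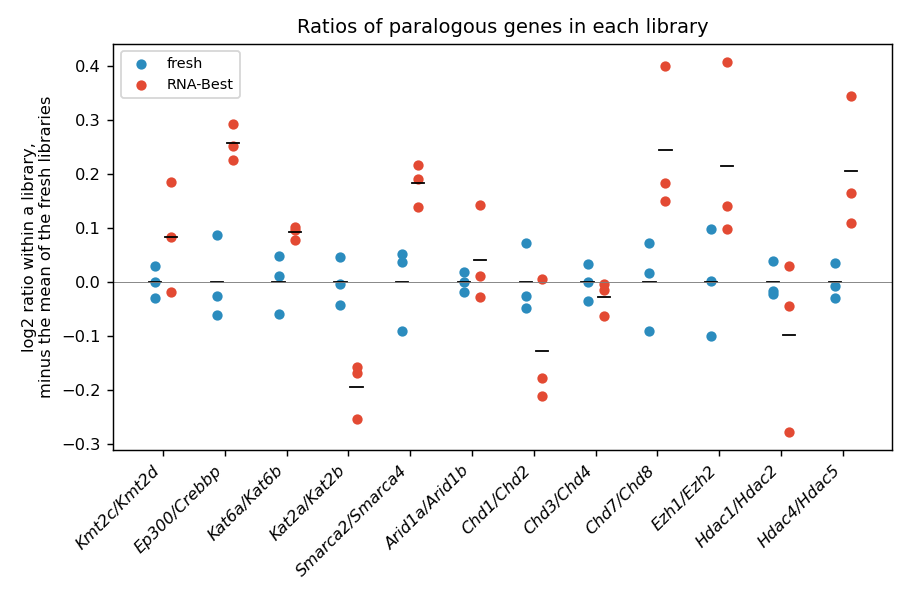
Points give the log2 ratio of 2 paralogs per kb of exons in each library, minus the mean of the fresh libraries, in blue for fresh and red for RNA-Best (3 each), and short lines give the group means. The red points lie above the blue ones for *Ep300* over *Crebbp* (shift 0.26) and below them for *Kat2a* over *Kat2b* (shift -0.19).

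Levels per length were compared between members as length-scaled values of a fixed sum (TPM) over the union of exons. In fresh libraries *Dnmt1* was highest at 184 ± 4.99 TPM (SD, n = 3), followed by *Hdac1* at 122 ± 1.98, *Suz12* at 106 ± 3.29, *Smarca4* at 106 ± 1.5, *Chd3* at 100 ± 3.50 and *Chd4* at 97.4 ± 5.38 TPM. *Chd7* at 3.54 ± 0.11, *Tet2* at 1.35 ± 0.09 and *Tet1* at 0.49 ± 0.09 TPM were lowest. Of the 43 pairs of neighbours in the fresh order, 21 had overlapping ranges, among them *Suz12* with *Smarca4* and *Chd3* with *Chd4*. *Dnmt1* stayed first and *Tet1* last in RNA-Best libraries, at 220 ± 2.43 and 1.01 ± 0.09 TPM. *Kmt2a* moved from place 32 to place 20, as it went from 13.6 ± 0.46 to 29.5 ± 0.88 TPM, and *Smarcb1* went from place 18 to place 28. With the longest transcript in place of the union of exons, the fresh level moved by more than its SD in 37 members, and *Kmt2a* was then at place 38 and 11.2 TPM. Over the union of exons the members together took up 1545 to 1617 TPM in fresh and 1947 to 1993 TPM in RNA-Best libraries.

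Other genes of the same complexes, listed by role but with earlier results of these data known, were counted next. Of 133 genes 131 were tested, and *Hdac9* and *Dnmt3l* did not pass the filter. Of the 131 tested, 66 were higher and 22 lower, with a median log2 fold change of 0.13. This is 50.4% higher and 16.8% lower, against 26% and 24.7% of all tested genes and 45.2% and 10.1% of those with 5 to 10 kb of exons, where the median length of the list lies (5698 bases). All 14 other histone demethylases were higher, with *Jmjd1c* at 0.61 and *Kdm7a* at 0.59. With an offset for exonic length 6 of these 14 were higher and 0 lower, and with an offset for coding length 5 were higher and 1 lower. Among the remodellers 12 of 23 were higher and 4 lower, with *Srcap*, the ATPase that deposits H2A.Z, at 1.21 and *Chd6* at 0.76, against *Mbd3* of the NuRD complex at -0.34 and the helicase *Ruvbl2* at -0.20. The level of *Srcap* was low, with means of 3.6 CPM in fresh and 8.64 CPM in RNA-Best libraries (standard error of the log2 fold change 0.13). Stretches shared with other genes were searched only for the members. In the methyltransferase complexes 8 of 12 were higher and 3 lower, with *Kmt2e* at 0.64 and *Setd1a* at 0.38. Of the core subunits that these complexes share, *Dpy30* (-0.30) and *Wdr5* (-0.13) were lower, *Rbbp5* (0.23) was higher and *Ash2l* (0.08) did not pass. The acetyltransferase group had 6 of 10 higher and 1 lower, with the scaffold *Trrap* at 0.52 and *Taf1* at 0.49 and the B-type enzyme *Hat1* at -0.14. Other SWI/SNF subunits were higher in 6 and lower in 3 of 19 (31.6% and 15.8%, near the shares of all tested genes), with *Pbrm1* at 0.42 and *Bcl7a* at 0.37 against *Bcl7c* at -0.35 and *Bcl7b* at -0.26.

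Other Polycomb genes were higher in 6 and lower in 4 of 21 (28.6% and 19.0%, also near those shares), with the PRC1 subunit *Phc3* at 0.84 and the PRC2 cofactor *Mtf2* at 0.33 against *Phf1* at -0.24 and *Cbx8* at -0.24. Deacetylases and their corepressors were higher in 6 and lower in 7 of 18. The corepressor *Ncor1*, the platform of HDAC3, was at 0.61 and *Rcor3* at 0.40, whereas *Hdac8* was at -0.31 and the Sin3 subunit *Sap30* at -0.29. Of 8 genes of DNA methylation 5 were higher, with the methyl-CpG binder *Zbtb33* at 0.56 and the glycosylase *Mbd4* at 0.50. Of 6 H3K9 methyltransferase genes 3 were higher, with *Setdb1* at 0.30 and *Ehmt1* at 0.25. Adjusted p of the genes named here were between 7.41e-20 and 0.00549 (edgeR). With an offset for exonic length the median of the 131 genes was 0.02, with 44 higher and 23 lower, where 18.9% of all genes were higher and 20.4% lower under that offset.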

How the data were processed

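Bulk mRNA libraries of GnRH-treated LβT2 cells were analysed, 3 fresh and 3 RNA-Best. The authors aligned single reads to mm10 (GRCm38) with STAR 2.5.1b and counted them per gene with featureCounts 1.5.0-p1. The deposited values are estimated counts (expected counts), between 9.36% and 16.3% of which lie more than 0.001 from a whole number, and the kit does not mark strand. Values of overlapping or near-identical genes are therefore uncertain.

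Counts were rounded and tested in R 4.3.3 with the quasi-likelihood test of edgeR 4.0.16 (TMM, filterByExpr with a minimum count of 10, Benjamini-Hochberg adjustment over all 14736 genes), with limma 3.58.1 (voom) and DESeq2 1.42.0 as alternatives. The study used limma-voom, which was run here as an alternative. Tables and exact permutation tests used Python 3.11.15, pandas 2.3.3 and SciPy 1.17.1. Length and GC offsets were fitted per library by loess (span 0.5). The script was tested on simulated data. Lengths and positions came from GENCODE M21, which is newer than the annotation of the authors but uses the GRCm38 assembly too, and 46574 of 47069 genes were found in it.

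Total counts ranged from 4909418 to 47438746, and 3 counts correspond to 0.0636 CPM at the largest and 0.61 CPM at the smallest total. No source says if the libraries were grown as separate cultures, and p-values measure the spread between these libraries, which may be technical. Replicate numbers did not pair the libraries. Members and lists were chosen with earlier results of these data known. All members are named, with values per library for the highest and lowest of each role, the roles with most and fewest calls, and paralog pairs whose ratios did not overlap. Of other chromatin genes the 2 highest and 2 lowest called per role are named. Single-cell and PCR data, spike-ins and the genes' proteins were not analysed here.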

Additional observations from a re-analysis of the deposited data

How the results depend on the processing

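The calls of all 44 members stayed on their side of the threshold, and their directions did not change, with RLE size factors, DESeq2, limma-voom and the replicate block. With the offset for exonic length 21 members were higher and 5 lower, and medians were 0.43 (methyltransferases), 0.21 (acetyltransferases), 0.11 (SWI/SNF), 0.10 (CHD and INO80), 0.11 (demethylases) and 0.28 (DNMT and TET), with 0.39 between activators and repressors. The directions of *Kat2a* (0.04), *Ezh2* (-0.08), *Hdac4* (-0.16) and *Dnmt3a* (-0.03) turned. With the offset for coding length 15 members were higher and 10 lower, and 42 other chromatin genes were higher. Medians were then 0.27, 0.13, 0.01, 0.00, -0.05 and 0.32 in the same order, with 0.26 between activators and repressors. It turned *Setd2* (-0.07), *Crebbp* (-0.06), *Smarca4* (-0.10), *Smarcc1* (-0.01), *Chd3* (-0.14), *Chd4* (-0.10), *Ino80* (-0.06), *Kdm4a* (-0.01), *Kdm6b* (-0.05), *Ezh2* (-0.07) and *Dnmt1* (-0.14). The offset for GC content gave 5 lower members, 14 lower other genes and medians of 0.24 (demethylases), 0.71 (DNMT and TET) and -0.04 (Polycomb), and turned *Kat2a* (0.11), *Kdm1a* (0.03), *Ezh2* (-0.06), *Rnf2* (-0.04) and *Hdac5* (0.11). The test against a 1.2-fold change left 19 members (19 higher, 0 lower) and 30 other genes (30 higher, 0 lower). With no filter 36 other genes were lower, medians were 0.41 (acetyltransferases), 0.13 (demethylases), 0.78 (methyltransferases), 0.06 (Polycomb) and 0.31 (SWI/SNF), and *Ezh2* turned (-0.02). Thinning to 4909268 counts gave medians of 0.13 (demethylases) and 0.05 (Polycomb) and turned *Kat2a* (0.02) and *Hdac5* (0.03). Adding SWI/SNF subunits and *Kdm6b* to the activators gave 0.41 between activators and repressors. The cause was not tested.

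Replicate numbers did not pair the libraries (correlations of deviations -0.00844, 0.0121 and -0.0077). With the replicate block 37 members passed, 34 higher and 3 lower. With the block and the offset for exonic length 5 members were lower, medians were 0.43, 0.22, 0.11, 0.10, 0.12 and 0.29 in the order above, the activators exceeded the repressors by 0.40, and *Kat2a* (0.05), *Ezh2* (-0.08), *Hdac4* (-0.16) and *Dnmt3a* (-0.03) turned.

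Leaving out each library in turn gave 36 to 38 members called, 33 to 34 higher and 3 to 4 lower, and 79 to 87 other genes, 59 to 64 higher and 18 to 23 lower. Medians ranged from 0.79 to 0.87 (methyltransferases), 0.43 to 0.48 (acetyltransferases), 0.32 to 0.39 (SWI/SNF), 0.25 to 0.34 (CHD and INO80), 0.16 to 0.19 (demethylases), 0.61 to 0.69 (DNMT and TET), 0.06 to 0.15 (Polycomb) and -0.12 to -0.05 (deacetylases), and the difference of activators and repressors from 0.64 to 0.70. Without fresh replicate 1 *Kat2a* turned (0.00), and without RNA-Best replicate 3 *Kat2a* (0.03), *Kdm1a* (0.00) and *Hdac5* (0.02). *Ezh1* lost its call without RNA-Best replicate 1 (0.14). Ratios of the 12 paralog pairs kept direction and overlap with 5 counts added in place of 0.5, whereas levels per length moved in 37 members with the longest transcript. Small changes in *Tet1* are limited by depth, with 30 counts in the shallowest library.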
